A study of Anguilla anguilla and Anguilla rostrata with 84 samples.

Results

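Of 992 liver contigs measured in eels, 14.0% passed a pair of filters and had their largest deviation among 9 laboratory treatments in fish fed polychlorinated biphenyls (PCB). These members, chosen by the measured deviations, were 66 contigs with a positive deviation (20 at 50 ng/g dry weight of food and 46 at 300 ng/g) and 73 with a negative deviation (19 at 50 ng/g and 54 at 300 ng/g). A contig is an assembled transcript sequence, and each was printed in 3 spots. The deviation is the mean log2 ratio of a group minus the mean of the 9 treatment means, so neither the control nor the wild fish enter it. Before the choice, the 60 contigs with the largest spread between fish of a group and the 200 with the smallest deviations were dropped, which left 732. Without these filters 92 contigs up and 99 down led at PCB. The counts per dose also depended on the fish included. At 300 ng/g they were 42 to 65 up and 50 to 76 down without any 1 fish of that dose. At 50 ng/g they were 49 up and 45 down without fish 3 and 5.

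PCBs are persistent chlorinated compounds that build up in fatty fish such as eels. Dioxin-like PCBs bind the aryl hydrocarbon receptor in fish liver, a transcription factor that induces enzymes of detoxification, and other PCBs act on nuclear receptors of steroid and xenobiotic metabolism. None of the 992 contig identifiers matched the gene table of the European eel assembly used here, 0 in all. The contigs are therefore given by identifier, with no gene, function or sequence, and the liver label could not be checked against marker genes.

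The study hybridised liver RNA of 84 eels, each against a common pool of liver RNA from 30 wild eels of Certes in France. The laboratory fish were European eels (Anguilla anguilla). The control is the baseline of the treatments. Those were a diet restricted to 2.5% of body weight, water at a salinity of 18 per mil, PCB in food at 50 or 300 ng/g, cadmium (Cd) in water at 0.4 or 4 ug/L, methylmercury in food at 5 ug/g, organochlorine pesticides (OCP) in food at 13 ng/g, and a temperature of 13 degrees C. The wild fish were American eels (Anguilla rostrata) from 4 Canadian sites (Sud-Ouest, St Jean, St François and St Pierre) and European eels from the French sites Gironde, Garonne and Dordogne. Each group held 5 fish, except 4 at 300 ng/g PCB. The sources used here give neither the age and sex of the fish nor the PCB congeners and the length of the feeding. A group is therefore known only by its labelled agent and dose. Liver is a mix of cells, in which fewer cells of a type and less RNA per cell cannot be told apart.

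A total of 3 arrays were left out, and 81 fish remained. Raw columns of control fish 5 were identical to those of high salinity fish 4, and columns of fish 1 at 4 ug/L cadmium to those of fish 4 at 0.4 ug/L. Low temperature fish 4 correlated negatively with the other arrays of its group (r = -0.56 to -0.49). The number of contigs above background in both channels was 980, 990, 470, 987 and 377 for fish 1 to 5 at 50 ng/g PCB and 952, 869, 783 and 956 for fish 1 to 4 at 300 ng/g. It was 753, 842, 599 and 674 for control fish 1 to 4. PCB fish 3 and 5 at 50 ng/g therefore rest on the dimmest PCB arrays, and their values are also given apart. Pairs of arrays within a dose correlated across contigs at 0.39 to 0.80 for 50 ng/g and at 0.60 to 0.81 for 300 ng/g.

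The deviations that chose the members had a median of 0.40 in absolute log2 units and ran from 0.26 to 1.03. The smallest member deviation was 0.256, and the largest of the 38 PCB-led contigs dropped as small was 0.251. A further 14 PCB-led contigs were dropped for their spread. The largest median within-group SD was 0.450 among the members, and the smallest among the contigs dropped for spread was 0.454. For 36 members the next treatment lay within 0.05 of the PCB deviation, and 43 contigs led by another treatment had a PCB deviation within 0.05 of the lead. The median margin over the next treatment was 0.104 and the largest 0.590. The members were somewhat brighter than the array as a whole, with a median mean brightness of 8.56 on the log2 scale against 7.90 over all contigs.

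**Figure D1:**
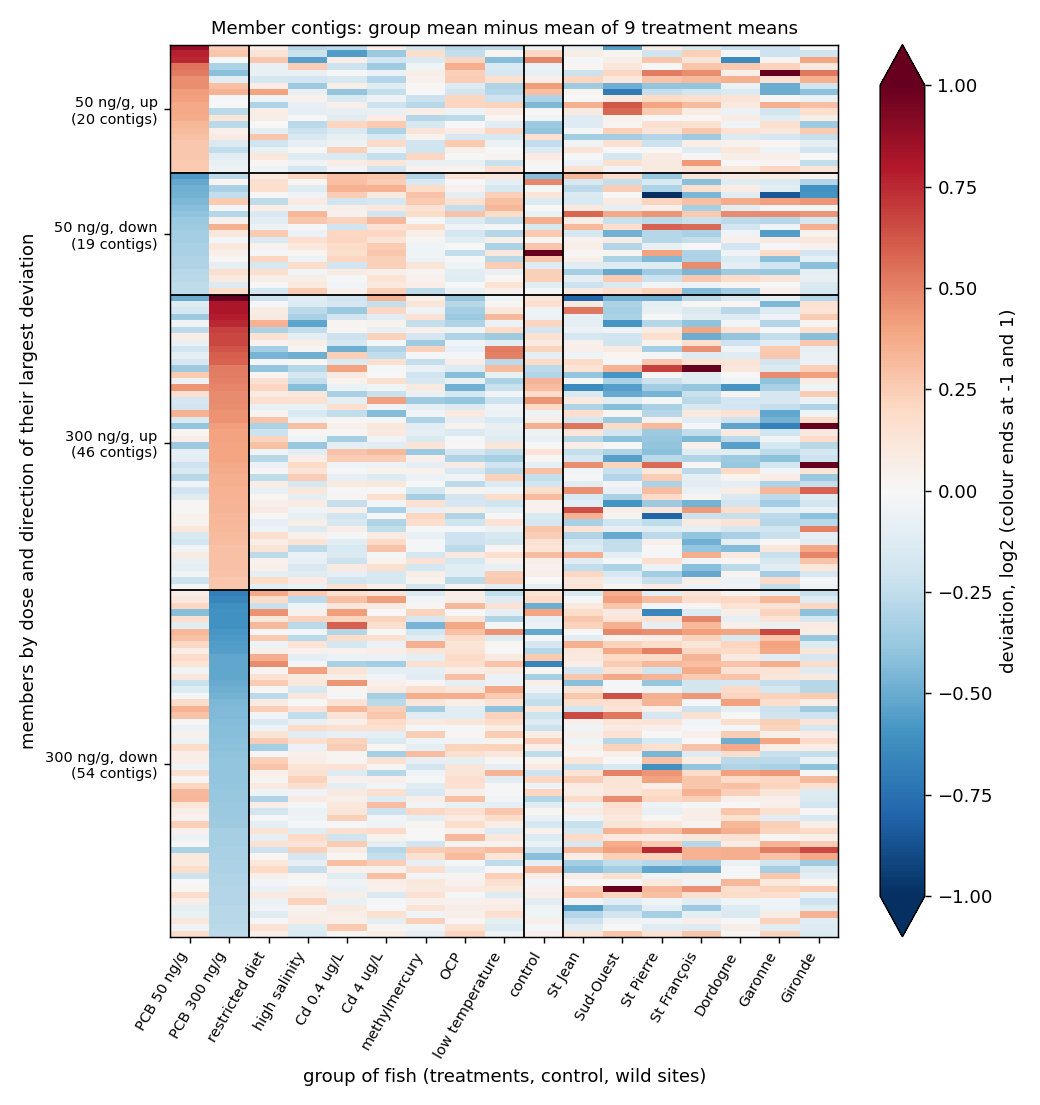
Deviation (log2, colour) of all members in rows, ordered by dose, direction and size, for each of the 17 groups in columns. The red and blue blocks at 50 and 300 ng/g PCB are the rule itself. Most rows in the block of one dose do not keep their sign in the column of the other, but some do.

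The contigs that led at one dose had medians near 0 at the other. At 300 ng/g, the 20 contigs that led upward at 50 ng/g had a median deviation of -0.034, and the 19 that led downward had 0.027. At 50 ng/g, the 46 contigs that led upward at 300 ng/g had a median of -0.087, and the 54 that led downward had 0.067. The median at the lower dose was thus opposite in sign to that at 300 ng/g for both lists, and each was under 0.1 in size. Single contigs differed from these medians. The other dose had the same sign in 7 of 20 contigs up and 8 of 19 down at 50 ng/g. It had the same sign in 13 of 46 contigs up and 15 of 54 down at 300 ng/g. For example, contig_11607 deviated by 0.44 at 50 ng/g and 0.49 at 300 ng/g. The mean of all 9 treatments includes both PCB groups, so that a large value in one lowers the other slightly by construction. The rule also holds the other dose to a smaller size than the leading one. The control lay near the middle of the treatments, with median deviations of -0.020 for the contigs up at 50 ng/g, 0.0094 for those down at 50 ng/g, 0.061 for those up at 300 ng/g and -0.050 for those down at 300 ng/g.

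In each member the rule holds the other 7 treatments to a smaller size than the leading PCB dose. Small medians there follow in part from the choice and are given as a description. For the contigs up at 50 ng/g, their medians ran from -0.14 in Cd 4 ug/L fish to 0.019 in OCP fish. The contigs down at 50 ng/g had medians of 0.16 and 0.21 in fish at 0.4 and 4 ug/L cadmium and lay between -0.044 and 0.059 in the other 5 treatments. Those up at 300 ng/g had their lowest median, -0.15, in OCP fish, and those down at 300 ng/g had their highest, 0.10, in OCP fish. The treatment next in size also differed between the lists. It was OCP for 9 of the 46 contigs up at 300 ng/g, each time with the opposite sign, and low temperature for 10 of the 54 contigs down at 300 ng/g, with the same sign in 2. The 9 deviations of a contig sum to 0, so an opposite sign is common by construction. In the list up at 300 ng/g it also held each time for methylmercury (6 contigs), 50 ng/g PCB (6), restricted diet (3) and high salinity (2). The sign was the same in 3 of 8 for low temperature, 1 of 6 for 0.4 ug/L cadmium and 2 of 6 for 4 ug/L cadmium.

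The control entered the rule only through the filter on spread. Against it, the PCB fish that chose the contigs are the same fish, so these differences are a description. The contigs up at 50 ng/g differed from the control by a median of 0.41 (20 of 20 positive) and those down at 50 ng/g by -0.46 (0 of 19 positive). At 300 ng/g the medians were 0.39 for the contigs up (45 of 46 positive) and -0.31 for the contigs down (2 of 54 positive). Over all 992 contigs the medians were -0.0063 at 50 ng/g and 0.021 at 300 ng/g. In 6 of 20 contigs up at 50 ng/g every PCB fish lay above all 4 control fish, with a background of 2.72% over all contigs. In 6 of 19 contigs down at 50 ng/g every PCB fish lay below them (background 2.62%). At 300 ng/g the PCB and control fish did not overlap in 9 of 46 contigs up (background 3.23%) and 11 of 54 contigs down (background 3.93%). These counts are not read further, because the rule chose on the PCB means.

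In a limma fit with a mean per laboratory group and Benjamini-Hochberg adjustment over 992 contigs, 5 contigs (0.504%) passed an adjusted p of 0.05 for 50 ng/g minus control. Members made up 4 of them, which is no support for the members, since the same fish at 50 ng/g chose them. They were contig_10031 (a difference of 0.72) and contig_30350 (0.71), up at 50 ng/g, and contig_21589 (-0.74) and contig_24468 (-0.99), down at 50 ng/g. contig_10031 was above background in both channels on 3 of 5 arrays at 50 ng/g and 2 of 4 control arrays, and contig_30350 on 4 of 5 and 2 of 4. contig_21589 was so on 3 of 5 and 4 of 4. For 300 ng/g minus control limma called 0 contigs (0%), with 13.4% of all contigs and 34 members at an unadjusted p under 0.05. The count of 4 members at 50 ng/g fell to 1 or fewer without control fish 3 or 4. It did so too without any 1 of PCB fish 1 to 4, and it fell to 2 without PCB fish 5. It rose to 9 without control fish 1 and to 6 without control fish 2. The share of all contigs called was 0% to 0.202% in the fits with 1 or fewer and 0.403% without PCB fish 5. It was 2.02% without control fish 1 and 2.42% without control fish 2.

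The 2 contigs of largest deviation per dose and direction, among those above background on at least 4 arrays of the dose and at least 3 control arrays, are given fish by fish. contig_23680 led upward at 50 ng/g, with a deviation of 0.87. Its log2 ratios of fish over pool were 0.26, 0.023, -0.043 and -0.22 in the control fish, 0.94, 0.72, 1.27, 0.32 and 1.48 at 50 ng/g, and -0.24, 0.72, 0.80 and -0.0014 at 300 ng/g. All 5 fish at 50 ng/g lay above the highest control fish, while at 300 ng/g a pair of fish lay above it and the other pair among or below the controls. The mean was 0.95 ± 0.45 (SD, n = 5) at 50 ng/g against 0.0071 ± 0.20 (SD, n = 4) in the control, a difference of 0.94 (SE 0.26). Group means over the other 7 treatments ran from -0.20 to 0.15, and wild sites from -0.47 to 0.15.

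contig_12608 was the other contig up at 50 ng/g, with a deviation of 0.77. It had log2 ratios of 1.54, 1.51, 1.48 and 1.80 in the control fish, 2.48, 1.30, 1.88, 2.12 and 3.00 at 50 ng/g, and 1.42, 2.08, 1.38 and 1.76 at 300 ng/g. PCB fish 2 at 50 ng/g lay below every control fish and the other 4 above every control fish, so the groups overlapped. The difference from the control was 0.57 (SE 0.30) at 50 ng/g. Fish at 0.4 ug/L cadmium had the lowest mean of the treatments, 0.82 ± 0.60 (SD, n = 5).

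contig_18304 led downward at 50 ng/g by the rule, with a deviation of -0.56, but hardly differed from the control there. Its log2 ratios were -0.49, -0.48, -0.37 and -0.71 in the control fish, -0.53, -1.16, -0.54, -0.44 and -0.58 at 50 ng/g, and -0.028, -0.48, -0.87 and -0.030 at 300 ng/g. At 50 ng/g 4 of 5 fish lay within the control range and fish 2 lay far below it. The difference from the control was -0.14 (SE 0.22), and 0.0057 without background subtraction. The control itself lay at -0.51 ± 0.14 (SD, n = 4), below 8 of the 9 treatment means.

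contig_24468 was the other contig down at 50 ng/g, with a deviation of -0.51. It had log2 ratios of 0.36, 0.83, 0.11 and 0.24 in the control fish, -1.15, -0.69, -0.35, -0.51 and -0.34 at 50 ng/g, and 0.20, -0.069, -0.14 and -0.29 at 300 ng/g. Every fish at 50 ng/g lay below every control fish and every fish at 300 ng/g. The mean was -0.61 ± 0.34 (SD, n = 5) at 50 ng/g against 0.38 ± 0.31 (SD, n = 4) in the control, a difference of -0.99 (SE 0.19). The control had the highest mean of all 17 groups, and the difference at 300 ng/g was -0.46 (SE 0.20).

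contig_17942 led upward at 300 ng/g and had the largest deviation of all members, 1.03. Its log2 ratios were 0.56, -0.20, 1.90 and 0.33 in the control fish, 0.031, -0.18, -0.0095, -0.039 and 0.37 at 50 ng/g, and 1.31, 2.08, 1.73 and 1.14 at 300 ng/g. All 4 fish at 300 ng/g lay above all 5 at 50 ng/g, and control fish 3 reached into the range of the 300 ng/g fish. The difference from the control was 0.92 (SE 0.38) at 300 ng/g and -0.62 (SE 0.36) at 50 ng/g, where the contig was above background on 3 of 5 arrays. Without control fish 3 the difference at 50 ng/g was -0.20 (SE 0.36). This fish carried much of the control mean of 0.65 ± 0.89 (SD, n = 4), and the difference at 300 ng/g ran from 0.63 to 1.33 with any 1 fish left out. The 7 wild sites lay between -0.25 and 0.46.

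contig_28701 was the other contig up at 300 ng/g, with a deviation of 0.81. It had log2 ratios of 1.30, 1.43, 0.84 and 1.34 in the control fish, 0.87, 1.48, 0.59, 1.26 and 0.48 at 50 ng/g, and 1.66, 2.46, 2.08 and 1.28 at 300 ng/g. PCB fish 4 at 300 ng/g lay within the control range and the other 3 above it. The difference from the control was 0.64 (SE 0.28) at 300 ng/g. The other 8 treatment means lay between 0.79 and 1.18 and the wild sites between 0.61 and 1.20.

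contig_16681 led downward at 300 ng/g, with a deviation of -0.68. Its log2 ratios were -0.44, -0.34, 0.12 and -0.13 in the control fish, -0.36, -0.14, -0.17, -0.40 and -0.29 at 50 ng/g, and -0.82, -1.05, -1.34 and -0.88 at 300 ng/g. All 4 fish at 300 ng/g lay below every control fish and every fish at 50 ng/g. The mean was -1.02 ± 0.23 (SD, n = 4) at 300 ng/g against -0.20 ± 0.25 (SD, n = 4) in the control, a difference of -0.82 (SE 0.18). At 50 ng/g the difference was -0.072 (SE 0.17).

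contig_33203 was the other contig down at 300 ng/g, with a deviation of -0.65. Its log2 ratios were -0.24, -0.056, -0.012 and -0.12 in the control fish, 0.048, -0.15, -0.31, -0.22 and -0.33 at 50 ng/g, and -0.80, -1.14, -1.33 and -0.55 at 300 ng/g. The fish at 300 ng/g again lay below all control and all 50 ng/g fish. The difference from the control was -0.85 (SE 0.23), but 0.026 in the authors' processed values. Its signal exceeded background in both channels for 3 of 4 control fish and 3 of 5 fish at 50 ng/g.

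**Figure D2:**
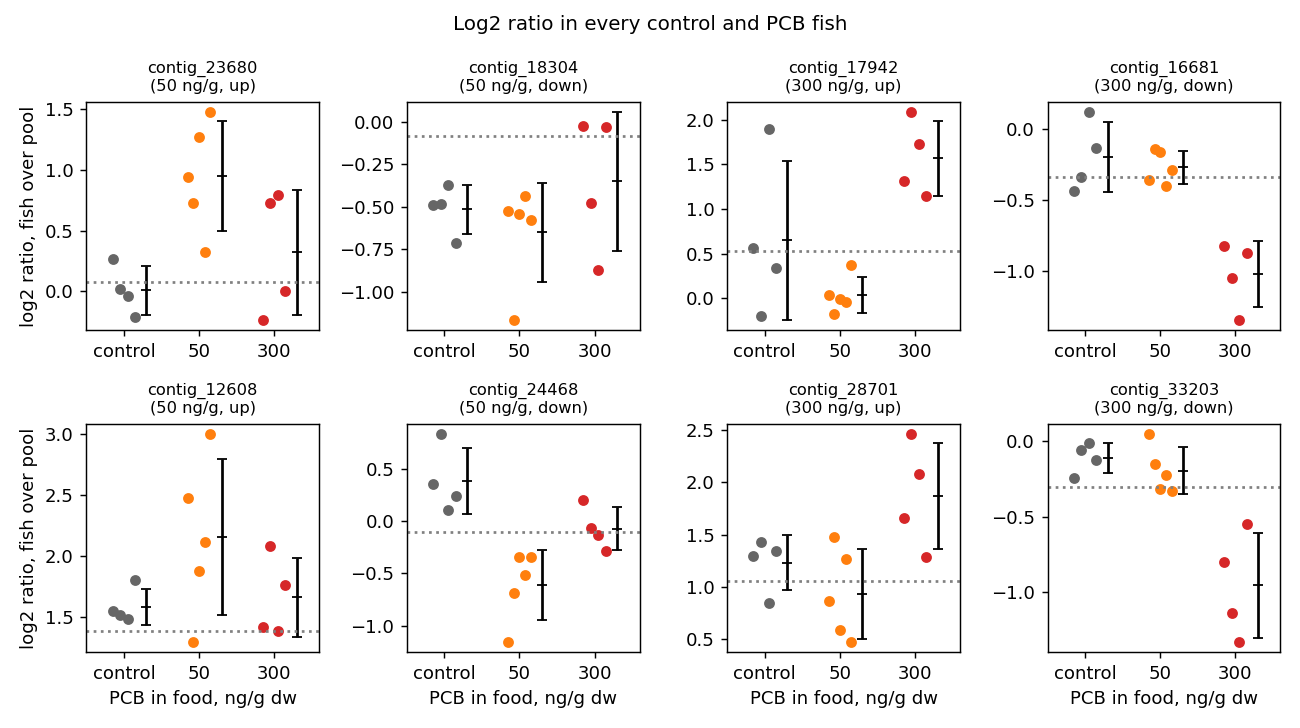
Log2 ratio of fish over pool (vertical axis) in each control fish and each fish at 50 and 300 ng/g PCB (horizontal axis) for the 8 contigs named by the rule, 1 panel each. Points are fish, bars are mean ± SD, and the dotted line is the mean of the 9 treatment means. The fish at 300 ng/g lie apart from both other groups for contig_16681 and contig_33203, while the fish at 50 ng/g overlap the control for contig_18304.

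Among the fish of a dose the members did not weigh alike. For the contigs up at 300 ng/g, the median deviation over the list was 0.17, 0.56, 0.63 and 0.34 in PCB fish 1 to 4. For the contigs down at 300 ng/g it was -0.27, -0.57, -0.50 and -0.31. Fish 2 and 3 thus lay farthest out in both lists, and fish 1 least. At 50 ng/g the medians were 0.38, 0.31, 0.36, 0.32 and 0.43 for the contigs up in fish 1 to 5, and -0.44, -0.53, -0.26, -0.31 and -0.34 for the contigs down. Of the fish on the dim arrays, fish 5 was the farthest out in the list of contigs up and fish 3 the nearest to 0 in the list of contigs down.

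Because each fish helped to choose the contigs, the choice was repeated without it and the fish left out was then read on the new list. The contigs led by another treatment were read the same way. The rule holds their PCB deviations below that of the leading treatment, so they are not matched in size to the new list. A lower value in them follows in part from the choice. The left-out fish share the baseline of treatment means with the choice, so the values are a description. At 50 ng/g the left-out fish 1 to 5 had median deviations of 0.279, 0.239, 0.029, 0.142 and 0.077 toward the sign of the others, against 0.363 to 0.390 in the fish that chose. At 300 ng/g the left-out fish 1 to 4 had 0.041, 0.292, 0.352 and 0.150, against 0.392 to 0.457 in the fish that chose. The values for contigs led by another treatment were 0.018 to 0.112. Every left-out fish thus lay nearer to 0 than the fish that chose. The contigs were taken for the large deviation of the fish that chose, so this follows at least in part from the choice. Fish 3 at 50 ng/g, on a dim array, lay below its own value for other-led contigs (0.069). Fish 1 at 300 ng/g lay close to its own (0.029), on an array with 952 contigs above background.

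**Figure D3:**
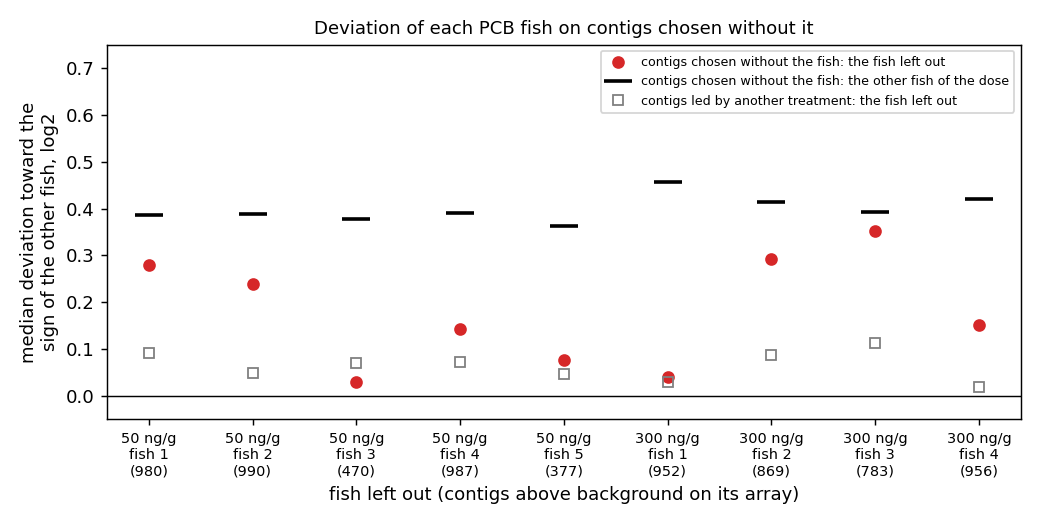
Median deviation (log2, vertical axis) of each PCB fish toward the sign of the other fish of its dose, on contigs chosen without it. Red points are the fish left out, black bars the fish that chose, open squares the same fish on contigs led by another treatment, and numbers in brackets the contigs above background on its array. All red points lie below their black bar, which follows at least in part from the choice, and they run from 0.029 to 0.352.

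The log ratio has a fish channel and a pool channel, and the pool is the same RNA on every array according to the labels. The channels were read apart, relative to the median of all contigs, which is 0 by this centring. For the contigs up at 300 ng/g the median deviation was 0.447 in the fish channel and 0.024 in the pool channel, and the fish channel was positive in 44 of 46. For the contigs down at 300 ng/g it was -0.046 in the fish channel and 0.428 in the pool channel, which was positive in 50 of 54. The contigs up at 50 ng/g had -0.026 in the fish channel and -0.479 in the pool channel, which was positive in 1 of 20. Those down at 50 ng/g had -0.218 in the fish channel and 0.072 in the pool channel. The median was thus larger in size in the fish channel for the contigs up at 300 ng/g and down at 50 ng/g. It was larger in the pool channel for those down at 300 ng/g and up at 50 ng/g. Both channels can also move together and leave the ratio nearly unchanged. At 50 ng/g, the contigs down at 300 ng/g had -0.344 in the fish channel and -0.430 in the pool channel, with a ratio of 0.067. Which channel gives the deviation of the ratio was not tested.

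Named contigs were read the same way. contig_17942 deviated by 0.97 in the fish channel and -0.025 in the pool channel at 300 ng/g. contig_16681 deviated by -0.069 in the fish channel and 0.71 in the pool channel, and contig_33203 by 0.0031 and 0.77. contig_28701 deviated by 0.68 in the fish channel and -0.043 in the pool channel. At 50 ng/g, contig_23680 deviated by 0.62 in the fish channel and -0.37 in the pool channel, and contig_12608 by 0.73 and -0.42. Of the contigs down at 50 ng/g, contig_18304 had -0.17 in the fish channel and 0.33 in the pool channel. contig_24468 had -0.20 and 0.21. Unlike the median of their list, neither was larger in size in the fish channel. Without background subtraction the list medians in the fish and pool channels were 0.108 and -0.010 for the contigs up at 300 ng/g and -0.069 and 0.260 for those down at 300 ng/g. They were -0.039 and -0.390 for those up at 50 ng/g and -0.251 and -0.073 for those down, so that the pool median changed sign for the contigs up at 300 ng/g and down at 50 ng/g. The part of the pool channel in each contig's ratio was not tested.

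**Figure D4:**
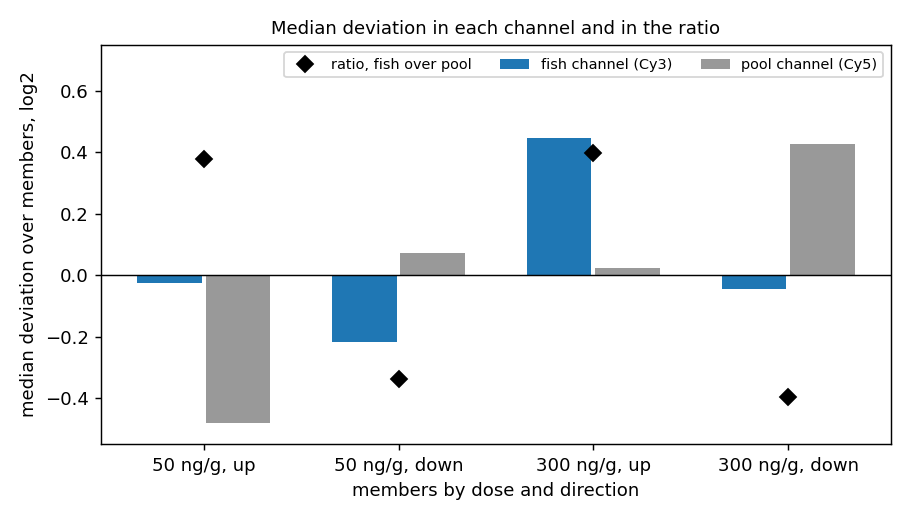
Median deviation (log2, vertical axis) over the members of each dose and direction (horizontal axis), at their own dose, in the fish channel (blue bars), in the pool channel (grey bars) and in the normalized ratio (diamonds). The pool bar is the longer one for the contigs up at 50 ng/g and down at 300 ng/g. The fish bar is the longer one for the contigs up at 300 ng/g and down at 50 ng/g.

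The wild fish entered the choice only through the filter on spread, which allows tests of the members there. Canadian American eels were set against French European eels, with species and continent the same split. Of the members 2 passed, both lower in the Canadian fish, in a limma fit over the 35 wild fish with Benjamini-Hochberg adjustment over all 992 contigs, of which 3.53% passed. contig_15081, up at 300 ng/g, ran from -0.75 to 0.77 with a median of -0.12 in the 20 Canadian fish and from -0.25 to 1.53 with a median of 0.53 in the 15 French fish. The difference of site means was -0.56 (SE 0.13, limma adjusted p = 0.0111), and the ranges overlapped. contig_30724, down at 300 ng/g, ran from -1.12 to -0.27 with a median of -0.61 in the Canadian fish and from -0.84 to 0.20 with a median of -0.32 in the French fish. The difference was -0.27 (SE 0.077, limma adjusted p = 0.0370). SE and p here rest on the spread of fish within sites and do not measure the spread between sites. The site means of the continents overlapped. For contig_15081 the deviation was 0.028 at St Pierre and 0.0069 at Dordogne. For contig_30724 it was -0.336 at Sud-Ouest and -0.339 at Garonne. Site and species were therefore not told apart. Median centring of the arrays in place of loess gave 16 members higher and 0 lower, neither of these contigs among them, with 9.98% of all contigs called. Both calls were also lost without background subtraction and with the processed values, and that of contig_30724 after scaling between arrays, and the differences then ran from -0.47 to -0.099 for contig_15081 and from -0.35 to -0.026 for contig_30724. With loess, 1.41% of all contigs were called higher and 2.12% lower.

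Within the European eel the Gironde estuary was set against the Dordogne river. Of the members 1 passed, against 0.706% of all contigs. contig_14911, up at 300 ng/g, had log2 ratios of 0.90, 3.39, 2.94, 1.26 and 1.13 in Gironde fish and -0.78, -0.086, -0.0043, -0.19 and -0.22 in Dordogne fish. Every Gironde fish lay above every Dordogne fish, and the Gironde fish spread over more than 2 log2 units. The difference was 2.18 (SE 0.49, limma adjusted p = 0.0252). The call was lost without any 1 of Dordogne fish 1 to 4 or Gironde fish 2 and 3, at differences of 1.81 to 2.24. It was also lost after median centring (1.86) and without background subtraction (1.54).

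Within the American eel, fish of St Pierre were set against fish of St Jean, and 1 member passed, against 1.61% of all contigs (0.907% higher and 0.706% lower). contig_35629, up at 300 ng/g, had log2 ratios of -0.79, -0.32, -0.33, -1.89 and 0.028 in St Pierre fish and 1.00, 0.43, 0.31, 0.96 and -0.24 in St Jean fish. The groups overlapped at St Jean fish 5. The difference was -1.15 (SE 0.27, limma adjusted p = 0.0251). The call was lost without St Jean fish 1, 2 or 4 or St Pierre fish 4, at differences of -1.16 to -0.84. It was also lost after median centring (-1.23) and when only these groups were fitted (-1.15).

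Wild French eels and laboratory control eels are of the same species, and neither entered the deviations. Their arrays differed in signal, with a median of 713.5 contigs above background in both channels for the control. The medians were 969 at Dordogne, 950 at Garonne and 980 at Gironde. The part of this difference in the calls was not tested. In a limma fit over all 81 fish, 25 members (18.0% of them) passed, against 21.2% of all contigs. The members were 11 higher in the wild fish (background 12.5%) and 14 lower (background 8.67%). The share of members called was near the background. Among the contigs up at 50 ng/g 3 were higher and 2 lower of 20, and among those down at 50 ng/g 1 was higher and 6 lower of 19. Among the contigs up at 300 ng/g 0 were higher and 4 lower of 46, and among those down at 300 ng/g 7 were higher and 2 lower of 54. At an unadjusted p under 0.05 in limma, 3 contigs up at 50 ng/g were higher and 3 lower. The counts were 3 and 8 for those down at 50 ng/g, 1 and 7 for those up at 300 ng/g and 10 and 2 for those down at 300 ng/g. No share over all contigs is given at this threshold. It cannot lie under the 12.5% higher and 8.67% lower called after adjustment. These unadjusted counts are therefore not read as a result about the members. The split of 11 higher and 14 lower became 6 and 3 after scaling between arrays, 5 and 12 after median centring and 27 and 22 with the processed values of the authors. Control fish 4 decided much of the count, which was 9 without it and 15 without control fish 3. The share of all contigs called moved alike, to 8.47% and 11.4%.

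contig_33173, down at 300 ng/g by the rule but 0.13 above the control there, ran from -0.61 to 0.40 with a median of -0.17 in the 15 wild French fish and was -0.93, -1.12, -1.19 and -1.25 in the control fish. The groups did not overlap, and the difference was 0.93 (SE 0.16, limma adjusted p = 4.06e-05), which held without any 1 fish. contig_15834, also down at 300 ng/g by the rule (-0.12 from the control there), ran from -0.54 to 0.42 with a median of -0.039 in the wild fish and was -0.97, -0.13, -1.19 and -0.73 in the control fish. Control fish 2 lay among the wild fish. The difference was 0.72 (SE 0.22, limma adjusted p = 0.0167), and the call was lost without control fish 1, 3 or 4, at 0.57 to 0.73, and at 0.42 to 0.58 after median centring, after scaling, without background subtraction and with the processed values.

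contig_24468, the contig down at 50 ng/g described above, was also lower in the wild French fish. It ran from -0.91 to 0.22 with a median of -0.22 there and had the control values given above. The difference was -0.67 (SE 0.18, limma adjusted p = 0.00553), and it shares its control fish with the PCB difference of -0.99. The call was lost without control fish 2 (-0.52), after median centring (-0.59) and with the processed values (-0.80). contig_14153, down at 50 ng/g, was called at -2.00 (SE 0.50, limma adjusted p = 0.00286) on 1 fish. It ran from -0.55 to 0.87 with a median of -0.022 in the wild fish and was -0.13, -0.44, 0.38 and 8.03 in the control fish. Without control fish 4 the difference was 0.019 (limma adjusted p = 0.962), and with the processed values it was -0.17.

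**Figure D5:**
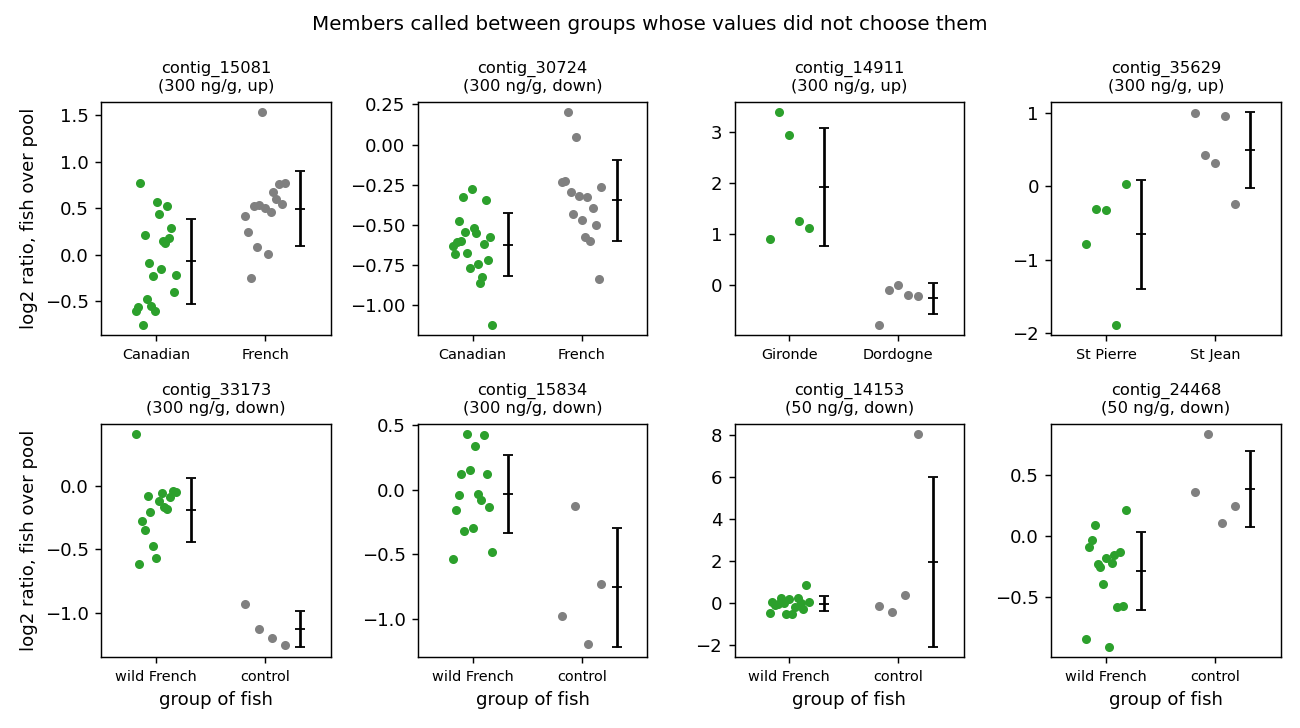
Log2 ratio of fish over pool (vertical axis) in each fish of the 2 groups compared (horizontal axis) for the 8 members named in the wild comparisons, with mean ± SD beside the points. The control fish lie apart from the wild French fish for contig_33173, and 1 control fish at 8.03 sets the control mean of contig_14153.

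Across the 35 wild fish, with site means removed, pairs of members of the same list had median correlations of 0.068 (up at 50 ng/g), 0.18 (down at 50 ng/g), 0.10 (up at 300 ng/g) and 0.12 (down at 300 ng/g). Pairs of all contigs had -0.00032. Pairs of 1 contig up and 1 down had -0.081 at 50 ng/g and -0.11 at 300 ng/g. These values describe weak relations between contigs that share arrays and normalization.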

How the data were processed

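Each array held 1 fish, labelled with Cy3, and the common pool, labelled with Cy5, per the labels' protocols. The authors deposited spot intensity values of foreground and background in both channels, from 4 to 65535, with no normalization recorded per the file headers. The authors also deposited log2 ratios of fish over pool, centred on the median of each array, with 9.63% missing. Of 84 such columns 80 could be rebuilt from the intensities of the same fish, within 0.001 for over 95% of contigs. The others were control fish 5, cadmium 4 ug/L fish 1, and restricted diet fish 2 and 3, whose columns matched each other's raw columns, so that their group mean is the same either way. The sources used here name no scanner or image software.

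Intensities were corrected by normexp (offset 50), normalized by loess within arrays and averaged over 3 spots in limma 3.58.1 (R 4.3.3). Tests used lmFit and eBayes with a mean per group and Benjamini-Hochberg adjustment over 992 contigs, at a threshold of 0.05. SE comes from these fits, and the number of arrays limits the precision. SE and p measure the spread of fish within groups, not the spread between sites. The members and lists were chosen with earlier results of these data known.

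Contigs were named by rule. Per PCB dose and direction these are the 2 of largest deviation with signal above background in both channels on at least 4 arrays of the dose and 3 control arrays. Per wild comparison they are up to 2 higher and 2 lower called members, largest first, above background on at least 80% of arrays of each side. The 4 members called for 50 ng/g minus control were named after their values were seen. Alternatives were scaling between arrays, no background subtraction, median centring, the processed values of the authors and a fit of only the groups compared. Further ones left out contigs with mean signal under the 0.25 quantile or PCB arrays with under 500 contigs above background. Low temperature fish 4 was kept in another, and neither filter of the rule was used in another. Each PCB fish was left out of the rule, and each fish of the groups compared out of the comparisons. Canadian minus French was not refitted without single fish. The alternatives for PCB minus control, control fish 3 left out for contig_17942 included, were chosen after seeing the data. Fish are separate individuals per the design text, which names no tanks, and they are numbered in accession order.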

Additional observations from a re-analysis of the deposited data

Results flagged for a closer look

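In groups of 4 or 5 fish, 58 sample groups were looked at for 1 fish far from the others, and 3 were found. Chance finds about 1 in 20. contig_18304 had -1.16 in PCB fish 2 at 50 ng/g, far below the other fish of that dose. contig_14911 had -0.78 in Dordogne fish 1, far below the other Dordogne fish. contig_14153 had 8.03 in control fish 4, far above the other control fish.

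contig_17942 had a difference of -0.62 (SE 0.36) at 50 ng/g and 0.92 (SE 0.38) at 300 ng/g relative to the same 4 control fish. Every fish at 50 ng/g lay below the control mean and every fish at 300 ng/g above it. The first of these rests on control fish 3, at 1.90. Without that fish the difference was -0.20 at 50 ng/g and 1.33 at 300 ng/g, and 1 of the 5 fish at 50 ng/g lay above the control mean. Its signal exceeded background for 3 of 5 fish at 50 ng/g. The difference between the doses was not tested, because the rule chose the contig on these values.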

How the results depend on the processing

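The numbers of members, 66 up and 73 down, stayed within 1.5 times under the alternatives run except that 28 were up and 21 down with the authors' processed values and 48 were down after median centring. Without any 1 PCB fish they were 63 to 82 up and 67 to 93 down. The contigs changed more than the counts. Of the members 51.8% were kept after median centring, 60.4% without background subtraction, 15.8% with the processed values and 77.7% after scaling. With the processed values only 494 contigs passed the filters, against 732 in the other 3. Of the members, 12 then had no value in every treatment or were left out, 35 were dropped as small and 70 were led by another treatment. With both PCB arrays under 500 contigs above background left out, 85.6% were kept and made up 64.7% of a new list, in which those at 50 ng/g grew to 49 up and 45 down. At the same dose and direction, 59 members stayed without any 1 PCB fish and 9 stayed under all 4 other ways to obtain log ratios, among them contig_16681, contig_17942, contig_23680, contig_24468 and contig_28701.

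Of the members called, Canadian minus French gave 16 after median centring, 0 without background subtraction (19 at an unadjusted p under 0.05 in limma) and 1 with the processed values, in place of 2. The shares of all contigs called were 9.98%, 1.41% and 2.32%, in place of 3.53%. Gironde minus Dordogne gave 2 after median centring, 0 without background subtraction (12 unadjusted) and 2 without dim contigs, in place of 1, and 0 to 3 without any 1 fish. Of all contigs, 1.11%, 0.202% and 1.08% were called there, in place of 0.706%, and 0.202% to 1.31% without any 1 fish. St Pierre minus St Jean gave 0 after median centring (21 unadjusted), 5 without background subtraction and 0 with only these groups fitted (11 unadjusted), in place of 1, and 0 to 2 without any 1 fish. Of all contigs, 0.907%, 2.92% and 0.202% were called there, in place of 1.61%, and 0.202% to 2.42% without any 1 fish. Wild French minus control gave 14 without background subtraction, 49 with the processed values and 9 after scaling, in place of 25, and 9 to 26 without any 1 fish. The shares of all contigs called moved the same way, to 11.3%, 32.3% and 10.2%, in place of 21.2%. PCB 50 ng/g minus control gave 0 after median centring (22 unadjusted), 16 with the processed values, 2 after scaling and 0 with only these groups fitted (34 unadjusted), in place of 4, and 0 to 9 without any 1 fish. Of all contigs, 0%, 5.2%, 0.202% and 0% were called there, in place of 0.504%, and 0% to 2.42% without any 1 fish. PCB 300 ng/g minus control gave 2 with the processed values and 1 without dim contigs, in place of 0, and 0 to 2 without any 1 fish. Of all contigs, 2.24% and 0.134% were called there, in place of 0%, and 0% to 0.403% without any 1 fish. The PCB counts rest on the fish that chose the members and are no support for them. For the unadjusted counts of this paragraph the share over all contigs is not given. Those counts are therefore not read as a result about the members.

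Differences changed sign for contig_18304 (0.0057 without background subtraction), contig_33203 (0.026 with the processed values) and contig_14153 (0.019 without control fish 4, and -2.80 to 0.019 without any 1 fish). The cause was not tested, except that the last rests on the 1 fish at 8.03. In Gironde minus Dordogne, median centring moved the median of all contigs to -0.11 and that of the members to -0.36. No paired analysis was possible because the fish numbers follow accession order and pair nothing. Slide as a block was not run, since each slide held 1 array, so that slide and fish cannot be told apart. The fish of the control and of each PCB dose also lay on consecutive slide numbers. Slide order and dose cannot be told apart either.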
